A study of Triticum aestivum and Aegilops tauschii and Triticum carthlicum with 18 samples.

Results

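A group of 19 probe sets without a hybridisation signal in the tetraploid wheat TTR04, but with a clear signal in the tetraploid TTH01 and in the goat grass TQ27, was followed into the hexaploid wheats made from these parents. The 19 were selected on measured levels, among 61115 probe sets on Affymetrix wheat arrays by 3 conditions on the parental arrays, with levels given as log2 values throughout. Both TTR04 arrays were under 4.54, all 4 arrays of TTH01 and TQ27 were at 6 or more, and the cluster Ta.1200 was set aside. The 4.54 level stands for the lower limit of signal in all that follows. The choice used the parental values themselves, so differences among the parents are given as a description only. Tests compare only groups that the choice did not use. Their estimate of spread, however, came from all 18 arrays, the parental arrays included.

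Bread wheat carries the genomes A, B and D. The A and B genomes come from a tetraploid wheat and the D genome from the diploid Aegilops tauschii, so that most genes exist as homoeologous copies on related chromosomes. A transcript missing in the tetraploid parent can therefore be brought into a hexaploid by the D genome alone. The question was whether these transcripts were detected in the hexaploid Allo-AT5, and at which level.

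The 18 arrays fell into 9 groups of 2. TTR04 is Triticum turgidum ssp. durum cv. Inbar, TTH01 is ssp. carthlicum, and TQ27 is Ae. tauschii. Allo-AT5 is TTR04 crossed with TQ27 and Allo-AT9 is TTH01 crossed with TQ27, TQ27 being the male parent of both. Both were doubled with colchicine and studied at the selfed generations S4 and S5 in plants chosen for an intact chromosome set. MPV5 and MPV9, the measured mid-parent values, are RNA mixtures of 2 parts of the tetraploid parent (TTR04 or TTH01) and 1 part of TQ27. No group received any other treatment. Each line or parent array held leaf RNA pooled from 10 plants, taken from the second leaf of seedlings, and each hexaploid was a single line. The table gives no counts, and the number of arrays limits the precision.

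Array medians ran from 4.00 to 4.11. The SD of the difference between the arrays of a group, over all probe sets, lay between 0.24 in Allo-AT5 S5 and 0.87 in TTR04. The BioC hybridisation controls were high on 1 array and low on the other in 8 groups, and low on both arrays of Allo-AT5 S5. The 33 annotated probe sets for photosynthesis genes, expected in leaf, averaged 5.40 to 5.96 per array, with 12 at or above 4.54 on every array and the highest at a mean of 14.41. The 11 for grain storage proteins averaged 2.67 to 3.18 per array, with 1 at or above 4.54 on every array and the highest at a mean of 6.29.

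The 19 probe sets belong to 16 clusters, a cluster being a group of wheat transcript sequences from which the array was designed. Cluster Ta.4073 gave 3 of them and Ta.7339 gave 2, and members of 1 cluster share sequence and are not independent. Only Ta.7339.1.S1_at and Ta.7339.1.S1_x_at had a gene symbol in the annotation, LOC780636, a protein-coding gene on chromosome 4B in the RefSeq wheat annotation. TQ27 carries the D genome and no chromosome 4B, so its signal on these probe sets comes from another copy. The name LOC780636 therefore stands below for probe sets with this symbol, whichever copy they bind. The other 17 are named by probe set. Of the 19, 13 had the plain suffix _at, against 79.2% of all probe sets, and 3 ended in _x_at, against 11.1%. The suffix _x_at marks probes that may bind unrelated transcripts, and _s_at (2 of the 19) and _a_at (1 of the 19) mark probes shared by several transcripts. None of the 19 was among the annotated probe sets listed for defence proteins (7), glutathione enzymes (5), photosynthesis (33) or grain proteins (11). These lists were drawn by gene symbol, which only 2 of the 19 had, so the other 17 could not appear in them. The defence list also holds probe sets of Ta.1200, the cluster set aside. Of these, 1 met the levels, so the absence of defence probe sets was set by the choice.

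**Figure D1:**
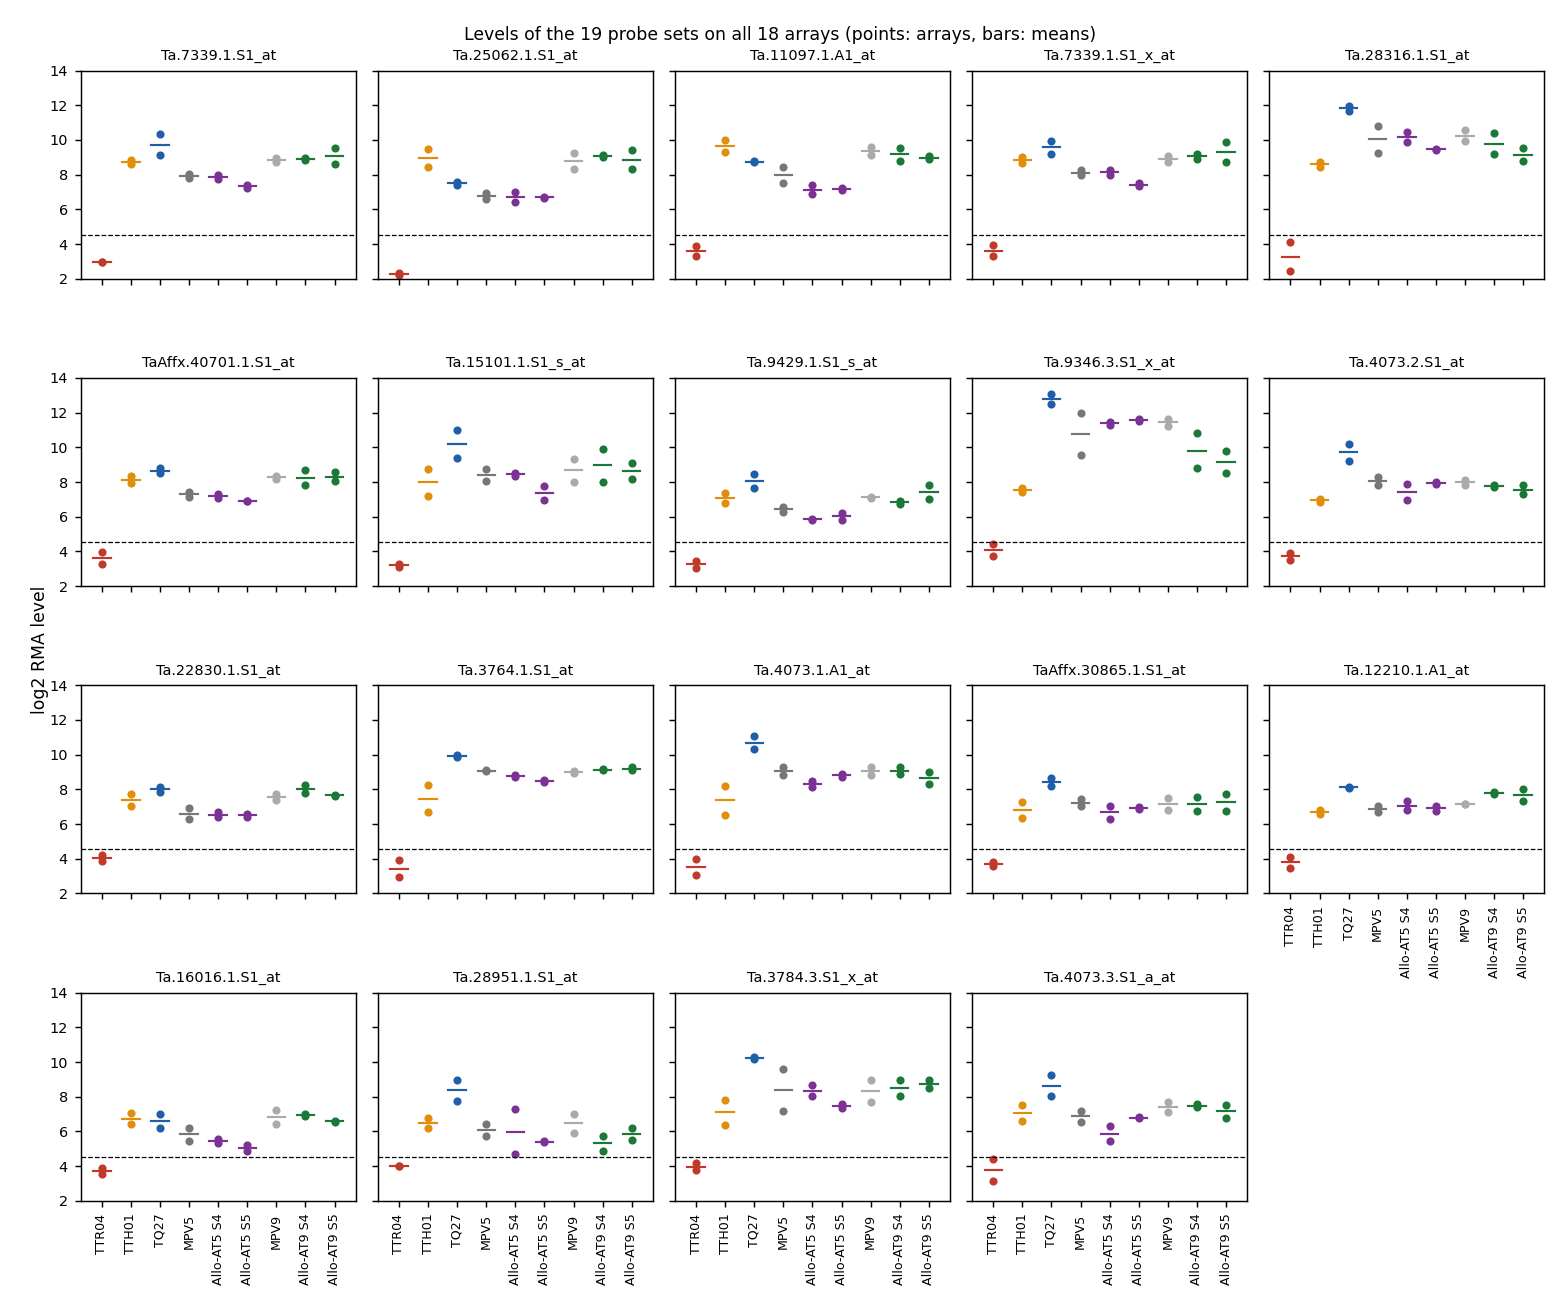
Log2 RMA level (vertical axis) of each of the 19 probe sets in the 9 groups (horizontal axis). Points are the 2 arrays of a group, short bars their mean, and the dashed line is the level of 4.54, under which all TTR04 points lie while every Allo-AT5 point lies above it.

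In the parents, the widest separation was in a probe set of LOC780636. Ta.7339.1.S1_at read 2.96 on both TTR04 arrays, 8.83 and 8.62 in TTH01, and 9.12 and 10.32 in TQ27. The lowest of the other parental arrays thus lay 5.65 above the highest TTR04 array, and Ta.7339.1.S1_x_at, with the same symbol, gave a gap of 4.76.

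Ta.25062.1.S1_at read 2.35 and 2.22 in TTR04, 8.45 and 9.49 in TTH01, and 7.43 and 7.56 in TQ27. Ta.11097.1.A1_at read 3.30 and 3.90 in TTR04, 10.02 and 9.29 in TTH01, and 8.71 and 8.78 in TQ27. These were the 2 members that were higher in TTH01 than in TQ27 on every array. In 16 others TQ27 was higher than TTH01 on every array, and in Ta.16016.1.S1_at, with 7.03 and 6.42 in TTH01 and 6.18 and 6.99 in TQ27, the arrays overlapped.

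Ta.28316.1.S1_at, with a gap of 4.32, read 2.43 and 4.13 in TTR04, 8.45 and 8.75 in TTH01, and 11.69 and 11.98 in TQ27. The other members of the 10 widest gaps were TaAffx.40701.1.S1_at (4.00), Ta.15101.1.S1_s_at (3.89), Ta.9429.1.S1_s_at (3.35), Ta.9346.3.S1_x_at (2.98) and Ta.4073.2.S1_at (2.92). Ta.9346.3.S1_x_at stood out for its TQ27 level of 12.49 and 13.09, against 7.41 and 7.68 in TTH01. Over all 19, the median of the group means was 3.62 in TTR04, 7.40 in TTH01 and 8.74 in TQ27.

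Membership depended on small margins for a few. Just inside, Ta.4073.3.S1_a_at had a TTR04 array at 4.44 and Ta.9346.3.S1_x_at one at 4.43. Just outside, TaAffx.128466.1.S1_x_at read 4.49 and 4.58 in TTR04 and TaAffx.93436.2.S1_at 4.14 and 4.62, and both had all TTH01 and TQ27 arrays above 6. The probe sets just outside were picked after their values were seen.

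An array level is binding to a set of probes, so that a transcript that is not made and a transcript whose sequence the probes do not match cannot be told apart. Other probe sets of the same clusters give the data closest to this point. In 9 of the 16 clusters there were 15 such probe sets, of which 6, in 4 clusters, had signal on both TTR04 arrays and 5 had both arrays under 4.54.

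For LOC780636, a further probe set, Ta.7339.3.S1_a_at, read 6.48 and 7.28 in TTR04, against 7.98 and 7.56 in TTH01 and 8.08 and 8.75 in TQ27. In cluster Ta.28316, Ta.28316.3.S1_at read 10.87 and 11.72 in TTR04 but 6.59 and 5.30 in TQ27, the opposite order to Ta.28316.1.S1_at. TTR04 leaf thus did give a signal for sequences of these clusters, on other probes.

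TaAffx.30865.1.S1_s_at read 6.37 and 7.94 in TTR04, where TaAffx.30865.1.S1_at read 3.60 and 3.79. In cluster Ta.9429 the second probe set, Ta.9429.1.S1_at, was low in both tetraploids, with 2.57 and 2.04 in TTR04 and 3.25 and 2.97 in TTH01, and read 8.46 and 8.97 in TQ27. In cluster Ta.3784 the 4 other probe sets had 1 TTR04 array under 4.54 and the other above it, the widest apart being Ta.3784.1.S1_a_at at 4.42 and 7.81.

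**Figure D2:**
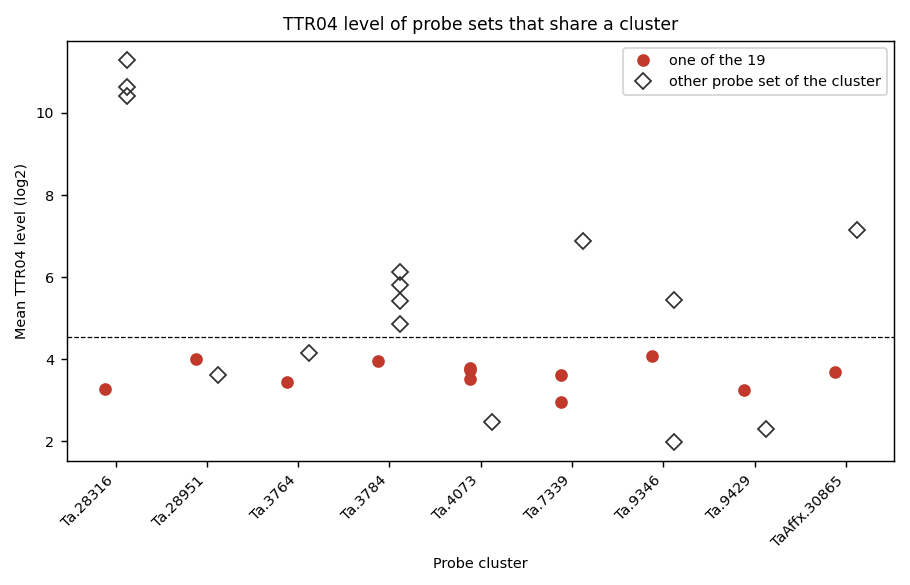
Mean log2 level in TTR04 (vertical axis) of the probe sets in the 9 clusters (horizontal axis) that hold both members (filled circles) and other probe sets (open diamonds), with the 4.54 level dashed. The 3 other probe sets of Ta.28316 lie at 10.42 to 11.29, far above the member of that cluster.

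In Allo-AT5 every one of the 19 was above the level again. Both arrays were at or above 4.54 for 19 of 19 in S4 and 19 of 19 in S5, where 39.8% and 41.8% of all probe sets met the same condition. The measured mixture MPV5 also gave 19 of 19, against 39% of all probe sets. Since the choice required at least 6 in TQ27, these shares are best set beside the 789 probe sets with signal in TQ27 alone among the parents, of which 76.9% in S4, 84.8% in S5 and 85.8% in MPV5 had signal. Those 789 were lower in TQ27, with a median of 7.54 against 8.74.

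The LOC780636 probe set Ta.7339.1.S1_at read 7.99 and 7.77 in Allo-AT5 S4 and 7.26 and 7.42 in S5. Ta.25062.1.S1_at read 6.98 and 6.42 in S4 and 6.73 and 6.66 in S5, and Ta.28316.1.S1_at read 9.86 and 10.45, then 9.43 and 9.47. All 4 Allo-AT5 arrays lay above both TTR04 arrays and below both TQ27 arrays in each of the 19.

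The weakest signals were in Ta.28951.1.S1_at, with 7.26 and 4.70 in S4 and 5.38 and 5.44 in S5, and in Ta.16016.1.S1_at, with 5.30 and 5.58 in S4 and 4.89 and 5.22 in S5. The strongest was Ta.9346.3.S1_x_at at 11.47 and 11.29 in S4 and 11.50 and 11.63 in S5. At the level of 6 that the choice demanded of the other parents, both arrays passed for 15 members in S4, 16 in S5 and 17 in MPV5.

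The levels in Allo-AT5 lay near those that dilution of TQ27 RNA would give. If a transcript came from TQ27 alone, the mixture of 2 parts and 1 part would hold it at log2 of 1/3, or -1.58, relative to TQ27. The median over the 19 was -1.63 in MPV5, -1.68 in Allo-AT5 S4 (range -2.77 to -0.80) and -1.78 in Allo-AT5 S5 (range -2.97 to -0.80). The S5 median was -2.25 without TQ27 replicate 1. The 789 probe sets with signal in TQ27 alone had medians of -1.50, -1.78 and -1.79 in the same order. The TQ27 arrays were part of the choice, and no test was made.

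A level computed from the parents, as 2 parts of the TTR04 level and 1 part of the TQ27 level on the linear scale, was also set beside each measured level. MPV5 differed from it by a median of -0.06, with 15 of 19 within 0.5. Over all 61115 probe sets the MPV5 median was -0.13, with 57267 within 0.5. Allo-AT5 differed by -0.11 in S4 (13 of 19 within 0.5) and by -0.29 in S5 (11 of 19). Over all probe sets these medians were -0.12 and -0.13, with 53781 and 52867 within 0.5. In each group the share within 0.5 was thus smaller among the 19 than over all probe sets. That reference is unlike the 19, as only 39% of all probe sets had both MPV5 arrays at or above 4.54. In Allo-AT5 this was 39.8% in S4 and 41.8% in S5, so the shares do not show poorer agreement among the 19. Among the members, Ta.25062.1.S1_at exceeded the computed MPV5 level most, by 0.77, and Ta.28951.1.S1_at lay lowest, at -0.86.

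**Figure D3:**
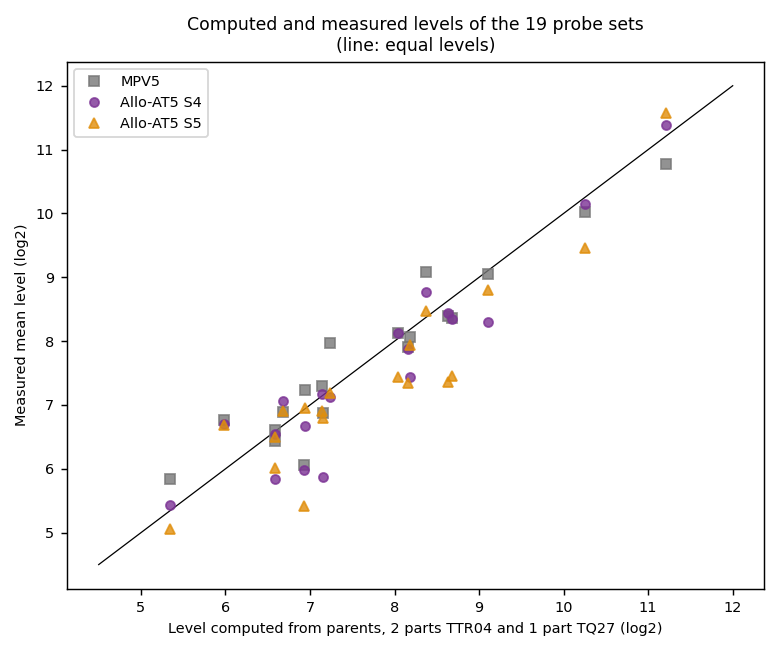
Measured mean log2 level of the 19 probe sets in MPV5 (squares), Allo-AT5 S4 (circles) and Allo-AT5 S5 (triangles) on the vertical axis, against the log2 level computed from TTR04 and TQ27 on the horizontal axis. The line marks equal levels, and 15 of the 19 squares lie within 0.5 of it, where 57267 of all 61115 probe sets did in MPV5. Of all probe sets, only 39% had signal on both MPV5 arrays.

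Against MPV5, which differs from the hexaploid in being a mixture of parental RNA, no member of the 19 passed the test in limma at a Benjamini-Hochberg adjusted p of 0.05 in either generation. The count was 0 in S4, with 1 member at an unadjusted p under 0.05, where 0% of all probe sets were called lower and 0% higher. It was 0 in S5, again with 1 at an unadjusted p under 0.05, where 0.00164% were called lower and 0.00327% higher. The median difference was -0.08 in S4, with 14 of 19 below 0, and -0.42 in S5, with 17 of 19 below 0. Medians over all probe sets were 0.01 and 0.00, and those of the 789 probe sets with signal in TQ27 alone were -0.29 and -0.32. Below 0 were 29599 in S4 and 30445 in S5 of all 61115 probe sets, and 592 and 579 of those 789. With 1 array left out, the S4 median was -0.25 without Allo-AT5 S4 replicate 1, -0.15 without Allo-AT5 S4 replicate 2, -0.38 without MPV5 replicate 1 and -0.14 without MPV5 replicate 2. The S5 median was -0.088 without MPV5 replicate 2 and between -0.56 and -0.39 without any other. In S4 both Allo-AT5 arrays lay below both MPV5 arrays for 5 of 19, and above for 0, where 11.8% and 12.3% of all probe sets did. In S5 the counts were 10 of 19 and 0, where 16.6% and 17.7% of all probe sets did.

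Ta.11097.1.A1_at was the lowest of the 19 relative to MPV5 when S4 and S5 were averaged. In S4 alone Ta.4073.3.S1_a_at was lower, and in S5 alone Ta.15101.1.S1_s_at (-1.03, SE 0.73) and Ta.3784.3.S1_x_at (-0.92, SE 0.70) were. Ta.11097.1.A1_at read 8.46 and 7.49 in MPV5, 6.86 and 7.39 in Allo-AT5 S4, and 7.23 and 7.13 in S5. All Allo-AT5 arrays were below both MPV5 arrays, with a difference of -0.85 in S4 (SE 0.37, adjusted p = 1.0 in limma) and -0.80 in S5 (SE 0.37, adjusted p = 1.0 in limma).

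Ta.16016.1.S1_at read 6.21 and 5.47 in MPV5 and differed by -0.40 in S4 and -0.78 in S5 (SE 0.35 for both). Ta.4073.3.S1_a_at read 6.55 and 7.19 in MPV5 and differed by -0.99 in S4 and -0.07 in S5 (SE 0.51 for both). These 2 came next in the average of S4 and S5, and neither passed the adjusted test.

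At the other end, Ta.9346.3.S1_x_at differed from MPV5 by 0.60 in S4 and 0.79 in S5 (SE 0.75), but its MPV5 arrays read 9.55 and 12.01, either side of all Allo-AT5 arrays. Ta.12210.1.A1_at read 6.71 and 7.07 in MPV5, 6.79 and 7.35 in S4, and 6.77 and 7.05 in S5. Ta.25062.1.S1_at read 6.58 and 6.93 in MPV5 and differed by -0.06 in both generations (SE 0.41).

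The precision leaves room for sizeable differences. The 95% intervals of the 19 had a median width of 1.72 on the log2 scale, and together reached from -2.11 to 2.24 in S4 and from -2.63 to 2.42 in S5. From S4 to S5 of Allo-AT5, 0 members passed the limma test, with 0 at an unadjusted p under 0.05 and 0% of all probe sets called in either direction, and the median difference was -0.16. Averaging S4 and S5, a comparison added after the data were seen, gave 0 calls against MPV5 (0.00327% of all probe sets called lower, 0.00491% higher) and a median of -0.37, with Ta.11097.1.A1_at at -0.82 (SE 0.32, adjusted p = 1.0 in limma).

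**Figure D4:**
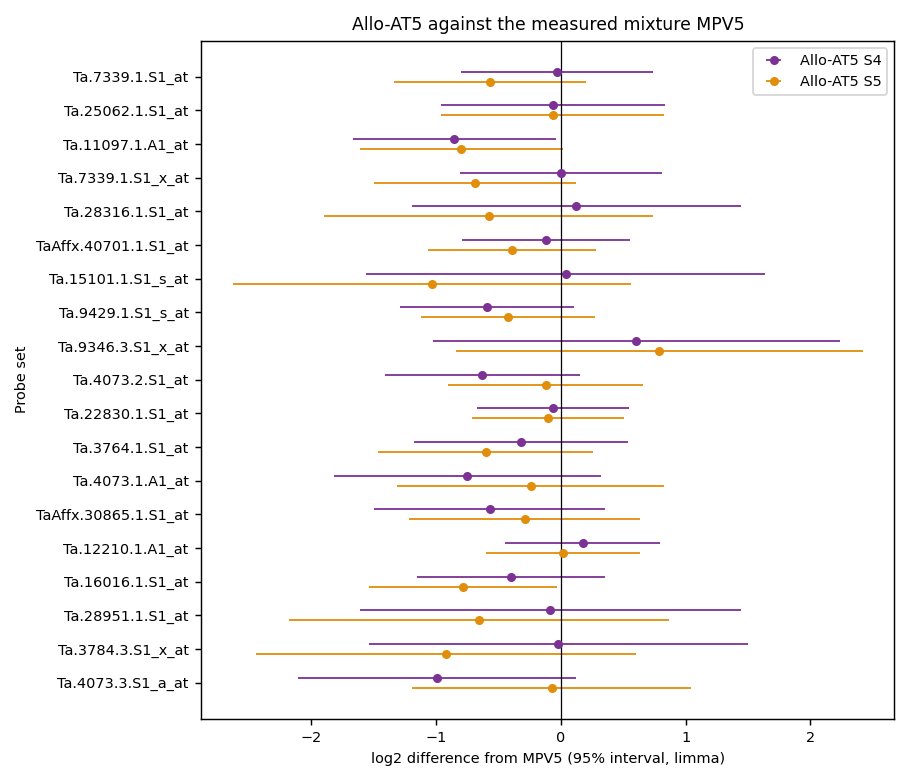
Log2 difference of Allo-AT5 S4 and Allo-AT5 S5 from MPV5 (horizontal axis) for each of the 19 probe sets (vertical axis), with 95% intervals from limma as bars. Most points lie left of 0, and 18 of the 19 bars cross 0 in each generation.

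The 2 mixtures share TQ27 and differ in the tetraploid RNA, so MPV5 against MPV9 sets the RNA of TTR04 against that of TTH01 on arrays outside the choice. Whether the mixtures were made from the extracts on the parental arrays is not given in the sources used here, and if they were, this comparison is not independent of the choice. The median was -0.53, with 15 of 19 lower in MPV5, against 0.01 over all probe sets, with 29911 of 61115 lower. The median of the 19 was -0.21 without MPV5 replicate 1. In limma 0 members passed, where 0.371% of all probe sets were called lower and 0.216% higher, and 6 members were at an unadjusted p under 0.05, all 6 lower, where 3.42% of all probe sets were lower and 2.29% higher at that threshold. Ta.25062.1.S1_at read 6.58 and 6.93 in MPV5 and 8.32 and 9.27 in MPV9, a difference of -2.04 (SE 0.41, adjusted p = 0.0508 in limma). Ta.11097.1.A1_at, at 8.46 and 7.49 against 9.59 and 9.11, differed by -1.37 (SE 0.37, adjusted p = 0.239 in limma). In both, the mixtures did not overlap, a weak condition with 2 arrays against 2, and its share over all probe sets is not given here. For Ta.25062.1.S1_at the adjusted p in limma was 0.0223 with the BioC control level and 0.0268 with the replicate number as a block, 0.0826 after cyclic loess, 0.590 in the fit of these 4 arrays alone, and 0.0566 to 0.420 with 1 array left out.

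The hexaploids differed in the same direction. Between Allo-AT5 and Allo-AT9 in S4, 3 members passed the limma test, all lower in Allo-AT5, where 0.399% of all probe sets were called lower and 0.296% higher. The median over the 19 was -0.78, against 0.00 over all probe sets.

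Ta.25062.1.S1_at read 6.98 and 6.42 in Allo-AT5 S4, against 9.01 and 9.16 in Allo-AT9 S4, a difference of -2.39 (SE 0.41, adjusted p = 0.0149 in limma). Ta.11097.1.A1_at read 6.86 and 7.39 against 9.56 and 8.82, a difference of -2.06 (SE 0.37, adjusted p = 0.0216 in limma). Ta.22830.1.S1_at read 6.68 and 6.41 against 7.78 and 8.24, a difference of -1.46 (SE 0.28, adjusted p = 0.0307 in limma). The arrays of the lines did not overlap in any of these, a weak condition with 2 arrays against 2. Its share over all probe sets is not given for this comparison. For Allo-AT5 S4 against MPV5 it was 11.8% lower and 12.3% higher. Leaving out any 1 of the 4 arrays lowered the count, to 0 without Allo-AT9 S4 replicate 1 and to 1 without Allo-AT5 S4 replicate 1, Allo-AT5 S4 replicate 2 or Allo-AT9 S4 replicate 2, and the fit of these 4 arrays alone called 0.

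In S5, 3 members passed, all lower in Allo-AT5, where 0.37% of all probe sets were called lower and 0.278% higher, and the median was -1.14 against -0.02. Ta.25062.1.S1_at read 6.73 and 6.66 in Allo-AT5, against 8.34 and 9.41 in Allo-AT9, a difference of -2.18 (SE 0.41, adjusted p = 0.0289 in limma).

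The other calls in S5 were both members with the symbol LOC780636. The further probe set of that symbol, Ta.7339.3.S1_a_at, lay closer, at 7.10 and 7.18 in Allo-AT5 S5 against 8.38 and 7.59 in Allo-AT9 S5. Ta.7339.1.S1_at read 7.26 and 7.42 against 9.56 and 8.61, a difference of -1.74 (SE 0.35, adjusted p = 0.0481 in limma), and Ta.7339.1.S1_x_at gave -1.87 (SE 0.37, adjusted p = 0.0426 in limma). The arrays of the lines did not overlap, which is again a weak condition. For Allo-AT5 S5 against MPV5, 16.6% of all probe sets met it lower and 17.7% higher. The count in S5 was 0 without Allo-AT5 S5 replicate 1 or replicate 2, 1 without Allo-AT9 S5 replicate 1, and 0 after a further cyclic loess normalisation of the arrays. The fit of these 4 arrays alone gave 1 call, for Ta.11097.1.A1_at. Both Allo-AT5 S5 arrays had low BioC controls, and with that level as a block the count was 3.

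With S4 and S5 averaged within each line, 4 arrays against 4, 8 members in 7 clusters were lower in Allo-AT5 and 0 higher, where 0.7% of all probe sets were called lower and 0.587% higher. This comparison was added after the data were seen, and both generations come from 1 line each, so that it compares these lines. The 8 were Ta.25062.1.S1_at (-2.28, SE 0.29, adjusted p = 0.000789 in limma), Ta.11097.1.A1_at (-1.93), Ta.16016.1.S1_at (-1.50), both members with the symbol LOC780636 (-1.38 and -1.40), Ta.22830.1.S1_at (-1.30), TaAffx.40701.1.S1_at (-1.24) and Ta.9429.1.S1_s_at (-1.19).

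The count was 4 without Allo-AT5 S5 replicate 1 or Allo-AT9 S5 replicate 1, and 5 without Allo-AT5 S4 replicate 2, Allo-AT5 S5 replicate 2 or Allo-AT9 S4 replicate 1. Ta.25062.1.S1_at, Ta.11097.1.A1_at, Ta.22830.1.S1_at and Ta.16016.1.S1_at were called with any 1 of the 8 arrays left out. In 9 of the 19 all 4 Allo-AT5 arrays were below all 4 Allo-AT9 arrays, where 3.75% of all probe sets were, and in 1 of the 19 all were above, where 3.04% were.

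The exception was Ta.9346.3.S1_x_at. It read 11.47, 11.29, 11.50 and 11.63 on the Allo-AT5 arrays and 8.79, 10.80, 8.50 and 9.81 on the Allo-AT9 arrays, and was higher in Allo-AT5 by 2.00 (SE 0.53, adjusted p = 0.119 in limma). The MPV9 arrays read 11.22 and 11.65, above all Allo-AT9 arrays, so that in this probe set the line whose tetraploid parent has the signal was below its own mixture, with differences of -1.64 in S4 and -2.28 in S5 (SE 0.75, adjusted p = 1.0 in limma for both). The other probe set with signal in this cluster, Ta.9346.1.S1_x_at, read 10.83, 11.39, 10.59 and 10.70 on the Allo-AT5 arrays. On the Allo-AT9 arrays it read 10.13, 11.25, 9.79 and 10.21, so the lines overlapped. Its MPV9 arrays, at 11.27 and 11.68, were also above all Allo-AT9 arrays.

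The line differences are also set beside the parental levels, which the choice used and which support nothing here. Ta.25062.1.S1_at and Ta.11097.1.A1_at, the 2 members higher in TTH01 than in TQ27 on every array, had the lowest values, and the 11 members that were not called had a median line difference of -0.40, with Ta.9346.3.S1_x_at at 2.00. The 8 called members were the 8 with the highest TTH01 level relative to TQ27, from -1.01 to 1.47, while the 11 others ranged from -5.24 to -1.43. Across the 19 members, Pearson's r between the line difference and TTH01 minus TQ27 was -0.91. With MPV5 minus MPV9 in place of the line difference it was -0.75, and between both differences r was 0.59. Ta.9346.3.S1_x_at, at -5.24 and 2.00, lay apart from the others, and r without it was not computed. The points share arrays, some share a cluster, and the choice used the TTH01 and TQ27 arrays, so these values are a description.

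**Figure D5:**
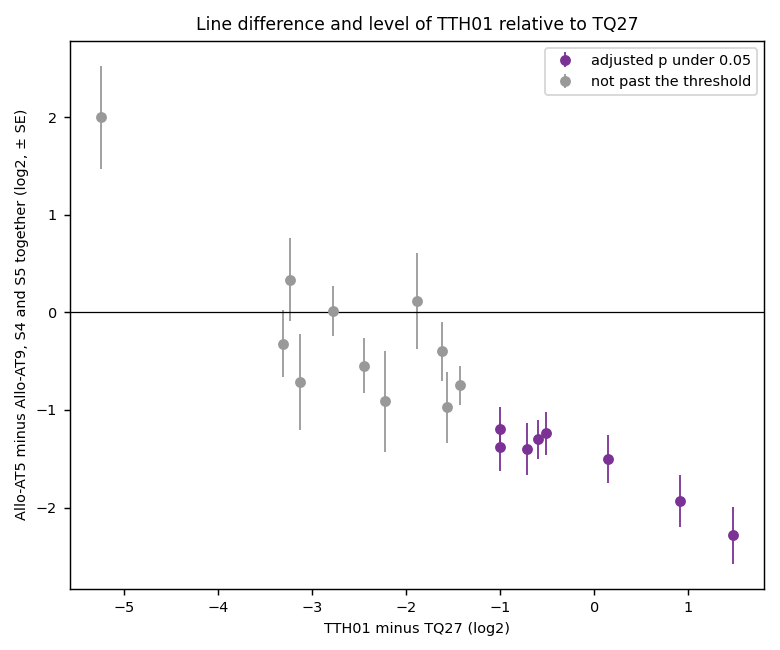
Log2 difference of Allo-AT5 from Allo-AT9 over S4 and S5 together, with its SE (vertical axis), against the log2 difference of TTH01 from TQ27 (horizontal axis) for the 19 probe sets. The 8 called members (purple) lie at the right, from -1.01 upwards, and Ta.9346.3.S1_x_at lies at the upper left, at -5.24.

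Allo-AT9 itself, whose parents both have these signals, stayed near its mixture over the 19. In Allo-AT9 and MPV9 both arrays were at or above 4.54 for 19 of 19 (40.1% of all probe sets in S4, 40% in S5 and 39.9% in MPV9). The choice demanded 6 or more in both parents of this line, so that this count was largely set by it. Of 9336 probe sets at 6 or more on all parental arrays, 9335 in S4, 9332 in S5 and 9336 in MPV9 passed too. Against MPV9, 0 members passed in limma in S4 (2 at an unadjusted p under 0.05, with 0.0278% of all probe sets called lower and 0.0524% higher) and 0 in S5 (1 at an unadjusted p under 0.05, with 0.0278% and 0.0475%). The medians were 0.05 and 0.03, and lay between -0.21 and 0.15 with any 1 array left out.

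Whether Allo-AT5 departed from its mixture differently from Allo-AT9 was tested as the difference of both differences, also added after the data were seen. In limma 0 members passed in S4 (0 at an unadjusted p under 0.05, with 0.0311% of all probe sets called lower and 0.00327% higher) and 0 in S5 (1 at an unadjusted p under 0.05, with 0.0262% and 0.00327%). That 1 was Ta.9346.3.S1_x_at, at 3.07 (SE 1.06, adjusted p = 1.0 in limma).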

How the data were processed

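Leaf RNA of 9 groups was hybridised to the Affymetrix Wheat Genome Array, 2 arrays per group. The authors normalised the raw arrays by Robust Multichip Average (RMA) in R and deposited 1 table of log2 expression values, which was read as it is. Versions of their tools are not given in the sources used here, and the raw arrays and MAS5 flags were not used here. RMA sets all arrays to 1 distribution, so levels are relative to the other probe sets of an array. Of 61290 probe sets, 111 controls (AFFX) and 64 reporters (RPTR) were left out.

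All 9 groups entered a single linear model without covariate (limma 3.58.1 under R 4.3.3, residual df 9, prior df 2.99). The Benjamini-Hochberg adjustment ran over 61115 probe sets. A call required an adjusted p under 0.05 and both arrays of at least 1 group compared at or above 4.54. The median SE was 0.28. The scripts were first tested on simulated data. There were 8 planned comparisons, and 2 with generations averaged and 2 differences of differences were added after the data were seen.

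The members, lists and tests were chosen with earlier results of these data known. Named were members with a gene symbol, the 10 with the widest parental gap, called members, the 3 highest and 3 lowest against MPV5, and the probe sets at the edge of the choice. Symbols came from the platform annotation and from RefSeq, for 1273 probe sets. Alternatives were the level limits, the fit of the compared groups alone, cyclic loess, the replicate number or the BioC control level (8 or more, under 8) as a block, and leaving out each array. The labels call the 2 arrays of a group biological replicates.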

Additional observations from a re-analysis of the deposited data

How the results depend on the processing

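Requiring 5 or 7 in place of 6 in TTH01 and TQ27 gave 73 or 9 members, and after cyclic loess 19 probe sets met the conditions, 18 of them the same. Counts of signal in Allo-AT5 and MPV5 kept within 1.5 times under the level limits of 5 and 6. At an unadjusted p under 0.05 the counts became 1 (Allo-AT5 against MPV5 in S4, in S5 and with generations averaged), 6 (MPV5 against MPV9), 10 and 10 (Allo-AT5 against Allo-AT9 in S4 and S5), and 2 and 1 (Allo-AT9 against MPV9 in S4 and S5). Of all probe sets, 2.89%, 2.39% and 3.07%, then 5.71%, then 5.86% and 4.56%, then 1.9% and 2.15% passed in the same order. In the fit of the compared groups alone, Allo-AT5 against Allo-AT9 gave 0 in S4 and 1 in S5 (Ta.11097.1.A1_at, not a call of the fit of all groups), and cyclic loess gave 0 in S5. Fewer arrays enter the separate fit, and the cause was not tested for cyclic loess.

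Leaving out 1 array at a time, the counts for Allo-AT5 against Allo-AT9 ran from 0 to 1 in S4, from 0 to 3 in S5 and from 4 to 9 with generations averaged. The median difference of Allo-AT5 S5 from MPV5 ran from -0.56 to -0.088, the S5 level relative to TQ27 from -2.25 to -1.59, and that of MPV5 from -1.84 to -1.20. No called result changed sign under these alternatives.

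The labels tie no arrays across groups by replicate number, and the numbers were not taken as pairs. Same-numbered deviations correlated over 0.1 in 3 of 8 comparisons (0.44 for MPV5 with MPV9, 0.58 and 0.52 for Allo-AT9 S4 and S5 with MPV9) and from -0.18 to 0.03 in the other 5. BioC controls were high on replicate 1 and low on replicate 2 in 7 groups. The replicate block gave 1 call for MPV5 against MPV9 (0 without it), as did the BioC block (1). It gave 3 and 2 calls for Allo-AT5 against Allo-AT9 in S4 and S5, and 9 with generations averaged. With the numbers crossed in Allo-AT5 S5, chosen after the data were seen, the counts were 0 against MPV5 and 2 against Allo-AT9. With 2 arrays per group, a missed call against MPV5 does not show that values were equal.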

Other observations

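The reverse choice, signal in TTR04 and TQ27 but none in TTH01, gave 11 probe sets. Both arrays were at or above 4.54 in Allo-AT9 and in MPV9 for all 11. The same held for 40.1% of all probe sets in Allo-AT9 S4, 40% in S5 and 39.9% in MPV9. Of the 789 probe sets with signal in TQ27 alone, it held for 607, 600 and 613 in the same order. With generations averaged, Allo-AT5 was higher than Allo-AT9 by a median of 1.09, with 4 of 11 called higher and 0 lower in limma, where 0.587% and 0.7% of all probe sets were. MPV5 was higher than MPV9 in 11 of 11, by a median of 1.29, where 31204 of all 61115 probe sets were higher. In the adjusted limma test 0 passed, where 0.371% of all probe sets were called lower and 0.216% higher. At an unadjusted p under 0.05 there were 8, all higher, where 3.42% of all probe sets were lower and 2.29% higher.

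The probe sets whose group means followed the mean profile of the 19 most closely over the 9 groups, among 29648 with signal, were Ta.1943.1.S1_s_at (Pearson's r 0.98), TaAffx.72706.1.A1_at (0.97) and Ta.3100.1.S1_a_at (0.97). All 3 had signal in TTR04, with means of 5.80, 6.77 and 7.63, so their profiles were alike in shape and not in level. The groups share arrays with the choice, and these values are a description.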
